A study of Mus musculus with 4 samples.

Results

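miR-221 and miR-222 are the mature products of a pair of neighbouring hairpins, and their 4 arms (miR-221-5p, miR-221-3p, miR-222-5p and miR-222-3p) were followed here in the cortex of wild-type and APPswe/PS1deltaE9 mice. They are the 4 of 942 mature miRNAs in the table named miR-221 or miR-222. They were chosen by the level of miR-221-5p, which had been seen to be lower in both transgenic mice, so the genotype difference of the arms is described below, with no p-value of an arm, and the fits and calls given for that contrast are no test of it. Small RNA was sequenced from the brain cortex of 4 mice of the strain B6C3, all 9 months old. WT-1 and WT-2 were wild type, and APP-3 and APP-4 carried the APPswe/PS1deltaE9 genotype, that is, a part-human amyloid precursor protein with the Swedish mutation together with human presenilin 1 with the ΔE9 mutation, with expression of the transgenes aimed at neurons of the brain and spinal cord. The study's methods state that WT-1 and APP-4 were siblings, as were WT-2 and APP-3, so that each sibling pair held 1 mouse of each genotype. The transgenes themselves are not measured by a table of miRNAs.

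The libraries held between 19048747 and 26085776 miRNA reads, and levels are given as RPM, the reads of a miRNA per 1000000 miRNA reads of its library. Intervals on single libraries are 95% Wilson intervals, which cover the counting error of reads and not the variation between mice. PCR copies are not independent molecules, so the intervals may be too narrow even for counting error. The miRNAs that mark neurons were abundant in each library, with between 29300 and 36670 RPM of miR-9-5p and between 7183 and 10834 RPM of miR-124-3p. APP-4 stood apart in the miR-200 family, with 449.6 RPM of miR-429-3p against between 23.5 and 28.5 in the other libraries. A second scaling, edgeR's trimmed mean of M values (TMM), lowered every log2 fold change of APP-4 over WT-1 by 0.25, and values on that scale are named as such. In bulk cortex, fewer cells of a type and less of a miRNA per cell cannot be told apart.

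A miRNA gene is transcribed as a longer RNA that is cut to a hairpin, and Dicer then cuts the hairpin to a duplex of a 5p and a 3p strand. One strand is usually kept in Argonaute as the guide, which finds its targets mainly through the seed near its 5′ end, while the passenger strand is mostly degraded. miR-221 and miR-222 are transcribed together from the X chromosome, and their 3p strands are the guides. Those guides are known for repressing Cdkn1b, which encodes the cell cycle inhibitor p27, and Kit, a receptor tyrosine kinase, and they are abundant in the vessel wall.

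In GRCm38.p6, Mir221 lies on the minus strand of the X chromosome at chrX:19146294-19146388 and Mir222 at chrX:19146893-19146971, with 504 bases between them. In the GENCODE vM21 annotation no other gene overlaps either hairpin, so both are intergenic, and the nearest gene is the noncoding transcript Gm14636 on the same strand, 10010 bases away. The RefSeq sequences of the hairpins are shown because the report turns on the strands each one releases. Capitals mark the mature arms that RefSeq annotates, which are both arms of Mir221 and the 3p arm of Mir222:
Mir221: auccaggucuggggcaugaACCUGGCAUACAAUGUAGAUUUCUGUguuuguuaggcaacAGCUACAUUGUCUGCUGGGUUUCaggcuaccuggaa
Mir222: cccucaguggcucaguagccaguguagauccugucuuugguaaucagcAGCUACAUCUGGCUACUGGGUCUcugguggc
Mir221 is 95 nt long and folded with RNAfold to a minimum free energy of -42.8 kcal/mol with 38 base pairs. Mir222 is 79 nt long and folded to -40.7 kcal/mol with 28 base pairs.

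The mature sequences, printed with the seed (bases 2 to 8) in capitals, show that the arms fall into different seed groups:
miR-221-3p: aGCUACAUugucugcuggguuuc
miR-222-3p: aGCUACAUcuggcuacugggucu
miR-221-5p: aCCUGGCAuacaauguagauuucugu
The 3p strands have the same first 8 bases and therefore the same seed. Aligned without gaps, they were identical at 11 of 23 positions and differed at 12. The seed of miR-221-5p is shared with no other mature mouse miRNA in the RefSeq table of 1738 sequences. The seed of the 3p strands also occurs in miR-1928, which has no row in the count table. The mature sequence of miR-222-5p is named only.

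Together the 4 arms accounted for 0.256% to 0.329% of each library's miRNA reads, and their levels spanned about 2 orders of magnitude. miR-221-3p, the guide of Mir221, was the most abundant and stood 57th of the 942 miRNAs by its mean level. miR-222-3p, the guide of Mir222, stood 88th. The passenger strand miR-221-5p ranked between 201 and 244 in the single libraries, and miR-222-5p stood 317th by its mean. The order miR-221-3p, miR-222-3p, miR-221-5p, miR-222-5p held in each of the 4 libraries without overlap between arms. All 4 arms passed the filter on low counts. Reads were counted on each arm as a whole, and ligation of adapters can favour one sequence over another, so the levels of different arms are compared here as read levels.

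miR-221-5p, the passenger strand of Mir221, was the arm on which the choice rested. It had 2771 reads or 106 RPM in WT-1 (interval 102 to 110.3), 2574 reads or 117 RPM in WT-2 (112 to 121), 1203 reads or 56.6 RPM in APP-3 (53.5 to 59.9) and 1457 reads or 76.5 RPM in APP-4 (72.7 to 80.5). Both APP libraries lay below both WT libraries, and APP-3 was the lowest. The WT mean of 111 ± 7.32 RPM (SD, n = 2) compared with an APP mean of 66.5 ± 14.1 RPM (SD, n = 2), a ratio of 0.597. The edgeR fit over the 4 mice gave a log2 fold change of -0.89 (SE 0.22) with TMM and -0.74 (SE 0.25) without it. Without APP-4, the library with the high miR-200 family, it was -1.06 (SE 0.34). Without APP-3, the library with the lowest level, it was -0.74.

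The guide strand of the same hairpin did not share this order. miR-221-3p had 1881 RPM in WT-1 (1864 to 1897), 1616 in WT-2 (1599 to 1633), 1721 in APP-3 (1704 to 1739) and 2293 in APP-4 (2271 to 2314). The genotypes overlapped, with APP-3 between the WT mice and APP-4 the highest. The WT mean was 1748 ± 187 RPM (SD, n = 2), and the APP mean was 2007 ± 404 RPM (SD, n = 2). Its log2 fold change in edgeR was 0.05 (SE 0.20), and it lay between -0.11 and 0.21 when one mouse at a time was left out.

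The guide strand of the second hairpin, miR-222-3p, which carries the same seed, had 681 RPM in WT-1 (671 to 691), 909.9 in WT-2 (897 to 923), 757 in APP-3 (745 to 769) and 898 in APP-4 (884 to 911). Here both APP mice lay between the WT mice. WT mice averaged 796 ± 162 RPM (SD, n = 2) and APP mice 827 ± 99.4 RPM (SD, n = 2). The log2 fold change in edgeR was -0.08 (SE 0.20) with TMM and 0.06 (SE 0.22) without it, so its sign turned with the scaling and its size was below its SE in both.

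miR-222-5p, the passenger strand of Mir222, was the rarest arm. It had 545 reads or 20.9 RPM in WT-1 (19.2 to 22.7), 383 reads or 17.3 RPM in WT-2 (15.7 to 19.2), 488 reads or 22.9 RPM in APP-3 (21.0 to 25.1) and 451 reads or 23.7 RPM in APP-4 (21.6 to 26.0). Scaled to miRNA reads, both APP libraries lay above both WT libraries, although the intervals of WT-1 and both APP libraries overlapped. WT mice averaged 19.1 ± 2.51 RPM (SD, n = 2) and APP mice 23.3 ± 0.516 RPM (SD, n = 2). With TMM library sizes the order was lost, with 22.7 RPM in WT-1 and 21.6 RPM in APP-4. Its log2 fold change in edgeR was 0.14 (SE 0.22) with TMM, less than its SE, and 0.29 (SE 0.23) without it, more than its SE. The passenger strands of the neighbouring hairpins therefore had differences of unlike sign between the genotypes when scaled to miRNA reads.

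**Figure D1:**
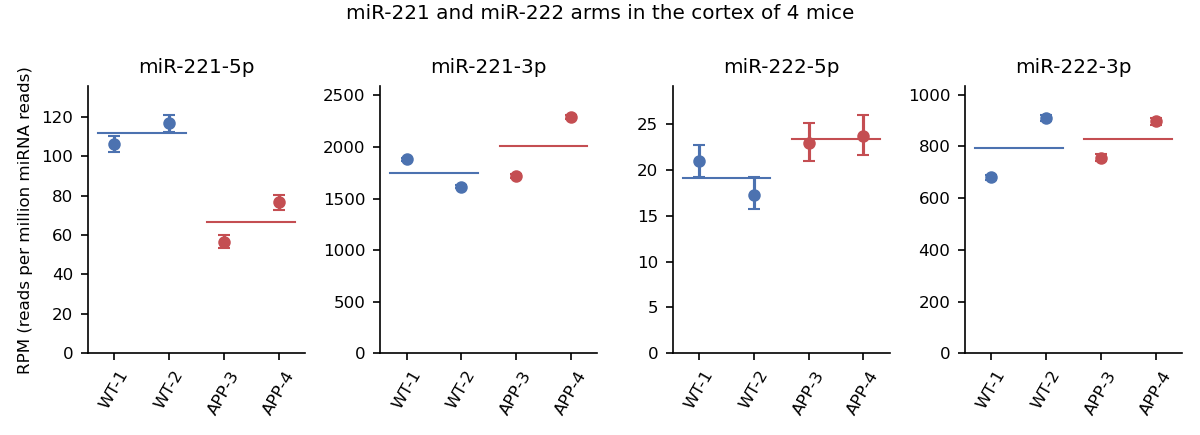
Level of each arm in RPM (vertical axis, from 0, one scale per panel) in the 4 libraries, with 95% Wilson intervals as bars and horizontal lines at the mean of each genotype (blue WT, red APP). miR-221-5p lies between 56.6 and 76.5 RPM in the APP libraries and between 106 and 117 in the WT libraries, while the genotypes overlap for both 3p arms.

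The direction of each arm can be set against the whole table, though the choice of the arms used this contrast and nothing is read from the comparison. Scaled to miRNA reads, both APP libraries lay below both WT libraries for 1 of the 4 arms, miR-221-5p, and for 8.99% of the 623 miRNAs that passed the filter. They lay above for 1 arm, miR-222-5p, and for 27% of the 623. With TMM library sizes these shares were 19.1% and 14.9%, and miR-221-5p still lay below while none of the 4 arms lay above. With edgeR's quasi-likelihood test and Benjamini-Hochberg adjustment, 0 of the 4 arms and 0% of the 623 miRNAs had an adjusted p under 0.05, and 36 of the 623 miRNAs had an unadjusted p under 0.05. DESeq2 called 0 as well. The median log2 fold change of the 623 miRNAs was -0.02 with TMM and 0.11 without it. An exact permutation test of 2 mice against 2 cannot give a two-sided p under 0.333.

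Within the sibling pairs, miR-221-5p was lower in the APP sibling each time, at -0.47 (SE of counting 0.05) on the log2 scale in APP-4 over WT-1 and -1.04 (SE 0.05) in APP-3 over WT-2. The arms were chosen on these values, so the calls that follow are a description and nothing is read from them. With an FDR under 0.05 in Fisher's exact test and at least 1.5-fold as limits, 1 of the 4 arms, miR-221-5p, was called between APP-3 and WT-2, where 6.81% of 896 miRNAs were called. Between APP-4 and WT-1, 0 of the 4 arms and 11.6% of 899 miRNAs were called. With TMM library sizes the log2 fold change of miR-221-5p between APP-4 and WT-1 was -0.73, which passed the same limits. On that scale 85 of the 899 miRNAs were called in this pair, 46 of them lower in APP-4, in place of 17 lower without TMM. miR-221-3p was higher in the APP sibling by 0.29 and 0.09, and miR-222-5p by 0.18 and 0.40, in the same order of pairs. With TMM, miR-222-5p between APP-4 and WT-1 was -0.07. miR-222-3p moved in opposite directions, with 0.40 (SE 0.02) in APP-4 over WT-1 and -0.27 (SE 0.02) in APP-3 over WT-2. Each value compares 2 libraries and not the genotypes.

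The 2 mice of one genotype were compared in the same way, a contrast that the choice of the arms did not use. In WT-2 over WT-1, miR-222-3p stood at 0.42 (SE 0.01) on the log2 scale and miR-221-3p at -0.22 (SE 0.01), so the guides of the hairpins differed in opposite directions between wild-type mice. miR-222-5p differed by -0.27 (SE 0.10, FDR 0.0154) and miR-221-5p by 0.13 (SE 0.04, FDR 0.00215) in Fisher's exact test. With TMM library sizes miR-221-5p no longer differed, at 0.03 (FDR 0.665). All 4 arms thus passed the FDR between the WT mice when scaled to miRNA reads, as did 40.5% of 879 miRNAs, and 0 of the 4 reached 1.5-fold beside 10.1% of the table. The 879 are all miRNAs with a read in either library, and those with few reads pass the FDR less readily. The share among miRNAs as abundant as the arms was not computed.

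Between APP-4 and APP-3, miR-221-5p was higher in APP-4 by a log2 fold change of 0.44 (SE 0.06, FDR 4.38e-14), miR-221-3p by 0.41 (SE 0.01) and miR-222-3p by 0.25 (SE 0.02, FDR 2.22e-53). miR-222-5p had 0.05 (SE 0.09, FDR 0.823). Here 3 of the 4 arms passed the FDR of Fisher's exact test, as did 35.2% of 907 miRNAs, and 0 of the 4 reached 1.5-fold beside 8.05% of the table. The same limit on miRNAs with few reads holds for this share. For miR-221-3p and miR-222-3p, a difference between mice of one genotype was larger than the log2 ratio of the genotype means, which was 0.20 and 0.06.

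**Figure D2:**
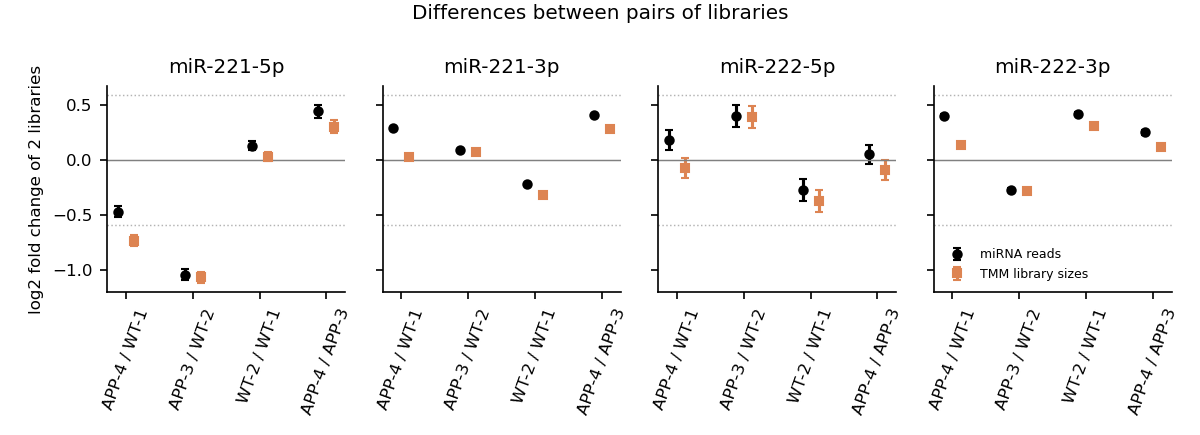
Log2 fold change of each arm (vertical axis, first library over the second) in both sibling pairs and in both pairs of mice of one genotype, scaled to miRNA reads (black circles) or to TMM library sizes (orange squares), with the SE of counting as bars and dotted lines at 1.5-fold. miR-221-5p lies at -0.47 and -1.04 in the sibling pairs and at 0.13 and 0.44 within the genotypes, while miR-222-3p lies on both sides of 0 in the sibling pairs.

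Because both strands of a hairpin come from the same transcript and are read in the same library, the share of 5p reads needs no scaling between libraries. In Mir221 the 5p strand made up 5.35% of the reads of both arms in WT-1 (interval 5.16 to 5.54), 6.73% in WT-2 (6.48 to 6.99), 3.18% in APP-3 (3.01 to 3.36) and 3.23% in APP-4 (3.07 to 3.40). The APP mice lay close together and below both WT mice. This share includes miR-221-5p, the arm on which the choice rested, so the order is a description. WT mice averaged 6.04% ± 0.978 (SD, n = 2) and APP mice 3.21% ± 0.0328 (SD, n = 2). Expressed the other way, each 5p read was matched by 17.7 and 13.9 reads of the 3p guide in WT-1 and WT-2 and by 30.4 and 30.0 in APP-3 and APP-4.

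In Mir222 the 5p strand made up 2.98% of the reads in WT-1 (2.74 to 3.23), 1.87% in WT-2 (1.69 to 2.07), 2.94% in APP-3 (2.70 to 3.21) and 2.57% in APP-4 (2.35 to 2.81). WT-2 was the lowest and WT-1 the highest, with both APP mice between them. WT mice averaged 2.42% ± 0.781 (SD, n = 2) and APP mice 2.76% ± 0.263 (SD, n = 2), a difference smaller than the SD of the WT mice. Without WT-1 the difference of the APP mice from WT was 0.89 percentage points and without WT-2 it was -0.22, so its sign rests on one wild-type mouse.

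Within a genotype, the 5p and 3p reads were compared between mice by Fisher's exact test (two-sided, 4 tests, Benjamini-Hochberg). In Mir221 the ratio of 5p to 3p reads was 0.0565 in WT-1 and 0.0722 in WT-2, a log2 change of 0.35 (adjusted p = 2.25e-17), and 0.0329 and 0.0334 in APP-3 and APP-4, a log2 change of 0.02 (adjusted p = 0.722). In Mir222 it was 0.0307 in WT-1 and 0.0191 in WT-2, a log2 change of -0.69 (adjusted p = 2.79e-12), and 0.0303 and 0.0264 in APP-3 and APP-4, a log2 change of -0.20 (adjusted p = 0.0493). The arm ratio thus differed by more than counting error between the 2 wild-type mice, and in opposite directions in the neighbouring hairpins.

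**Figure D3:**
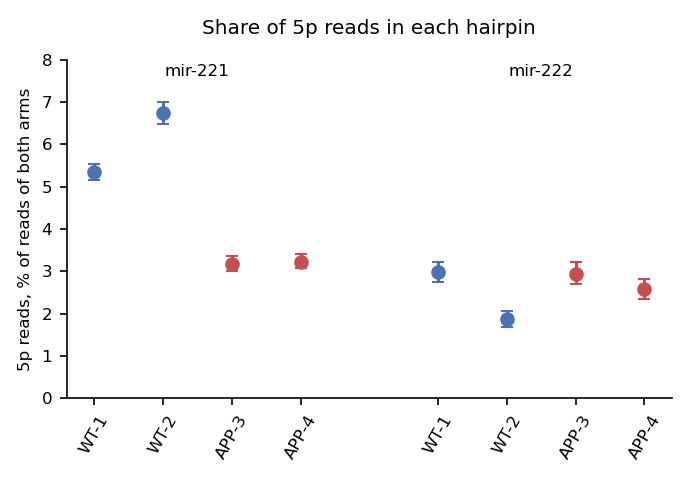
Share of 5p reads among the reads of both arms (vertical axis, percent, from 0) of each hairpin in the 4 libraries, with 95% Wilson intervals (blue WT, red APP). In Mir221 the APP libraries lie at 3.18% and 3.23%, below 5.35% and 6.73% in the WT libraries, and in Mir222 they lie between the WT libraries. The share of Mir221 includes the arm on which the choice rested.

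Both arms had at least 10 reads in every library for 179 hairpins that are the only source of their arms. Over these, the log2 ratio of 5p to 3p reads differed between the genotype means by a median size of 0.22, beside a median size of 0.40 between WT-2 and WT-1 and 0.34 between APP-4 and APP-3. Mir221 had -0.95, the fourth lowest value of the 179, after mir-409, mir-99b and mir-99a. In mir-99b and mir-99a the 5p strand was the commoner one, unlike in Mir221. Larger differences in the other direction were found in mir-455 (1.84), mir-501 (1.33) and mir-495 (1.25). Mir222 had 0.23. The share of 5p reads was lower in both APP libraries than in both WT libraries for 18.4% of the hairpins and higher for 11.7%, and Mir221 was among the former. In 88 of the 179 hairpins the 5p strand was the rarer one, as in Mir221 and Mir222. Over all 179, the log2 ratio of the rarer to the commoner strand differed between genotypes by a median of 0.04, and the rarer strand's share was lower in both APP libraries in 23 hairpins and higher in 31. These values include the arm on which the choice rested and are a description.

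**Figure D4:**
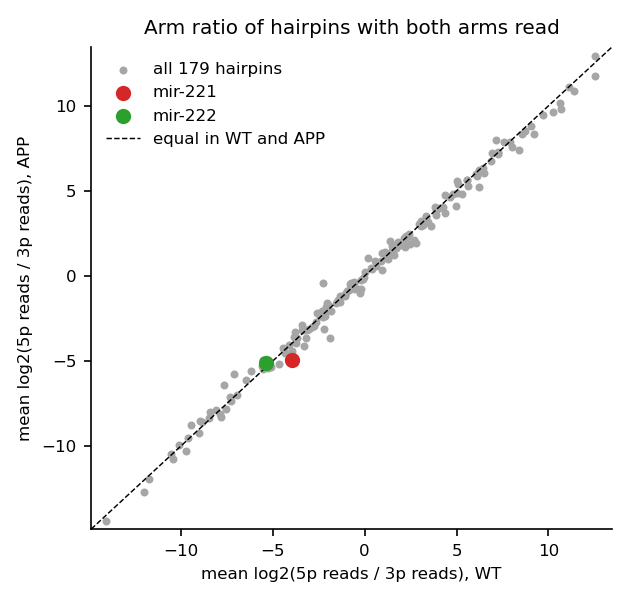
Mean log2 ratio of 5p to 3p reads in the WT libraries (horizontal axis) and in the APP libraries (vertical axis) for 179 hairpins with both arms read, with a dashed line where they are equal. Mir221 (red) lies 0.95 below the line and Mir222 (green) 0.23 above it.

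The hairpins were also compared with each other, since they lie side by side and are known to be transcribed together. The ratio of miR-221-3p to miR-222-3p reads was 2.76 in WT-1, 1.78 in WT-2, 2.27 in APP-3 and 2.55 in APP-4. Its highest and lowest values were both in wild-type mice, and the APP mice lay between them. Within a genotype the ratio differed by a log2 change of -0.64 between WT-2 and WT-1 and of 0.17 between APP-4 and APP-3 in Fisher's exact test (two-sided, 2 tests, adjusted p = 1.26e-276 and 5.68e-19). The tests compare single libraries. The ratio of the passenger strands, miR-221-5p to miR-222-5p, was 5.08 in WT-1, 6.72 in WT-2, 2.47 in APP-3 and 3.23 in APP-4, lower in both APP mice, and includes the arm on which the choice rested. The summed level of the guides with the shared seed was 2562 RPM in WT-1, 2526 in WT-2, 2478 in APP-3 and 3190.2 in APP-4, with APP-3 the lowest and APP-4 the highest.

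The miRNAs whose levels followed those of the arms most closely over the 4 libraries were found among 251 others with a mean of at least 50 RPM, by the Euclidean distance between log2 RPM profiles centred on their own mean. The nearest to miR-221-5p was miR-146b-5p at a distance of 0.31, with 4253 RPM in WT-1, 3832 in WT-2, 2365 in APP-3 and 3326 in APP-4. It was followed by miR-185-5p at 0.46, miR-145a-5p at 0.51, and miR-873a-3p and miR-24-3p at 0.58. Each of these was lowest in APP-3, as was miR-221-5p, by whose profile they were picked. The genotypes overlapped for miR-185-5p, with 106 RPM in WT-1 and 118 in APP-4. The profile of miR-221-3p, from the same hairpin, was in place 142 of the 251 at 0.98, and that of miR-222-3p in place 75 at 0.86.

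The nearest to miR-222-3p were miR-674-5p at 0.06, miR-3099-3p at 0.07, miR-770-3p at 0.08, miR-340-3p at 0.09 and miR-128-3p at 0.10. miR-128-3p, a neuronal miRNA, had 28065 RPM in WT-1, 36979 in WT-2, 30248 in APP-3 and 33789 in APP-4, with WT-1 the lowest and WT-2 the highest, as for miR-222-3p. miR-221-3p, which carries the same seed and comes from the same locus, was in place 137 of 251 at 0.48. A distance over 4 libraries is a description of these mice, and all miRNAs of a library share its depth.

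**Figure D5:**
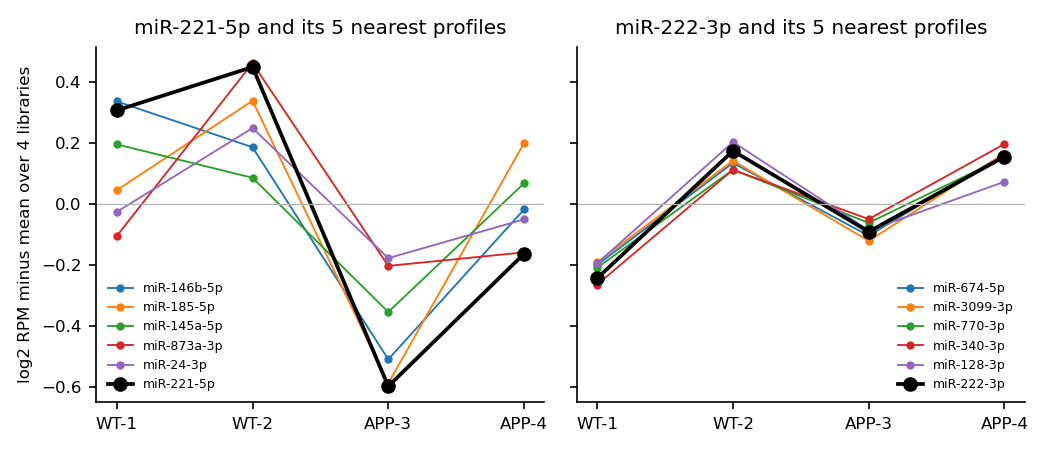
Log2 RPM minus the mean over the 4 libraries (vertical axis) for miR-221-5p and miR-222-3p (black) and the 5 miRNAs with the nearest profiles (colours). The profile of miR-221-5p falls in both APP libraries and is lowest in APP-3, and that of miR-222-3p is lowest in WT-1 and highest in WT-2.

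miRNAs of the cell types that cortex tissue can hold were followed beside the arms, and their part in the differences was not tested. The 10 vascular miRNAs of the list, a cell type in which miR-221 and miR-222 are known to be abundant, summed to 31965 RPM in WT-1, 32793 in WT-2, 30346 in APP-3 and 24663 in APP-4. The sum, most of it miR-143-3p, was lower in both APP mice with either scaling, as was miR-221-5p. The endothelial miR-126-3p had 797, 849, 893 and 1058 RPM in the same order, higher in both APP mice with either scaling. The more abundant miR-126-5p did not share this order. It had 6525 RPM in WT-1, 7116 in WT-2, 8242 in APP-3 and 6568 in APP-4, and the genotypes overlapped. The median log2 ratio of APP to WT was -0.07 over the 10 vascular miRNAs and 0.30 over 6 miRNAs of microglia and leukocytes, beside 0.11 over the 623 miRNAs. The microglial and leukocyte list summed to between 1588 and 1629.9 RPM in the WT mice and between 1702 and 1805 in the APP mice, an order lost with TMM, where WT-2 had 1647 and APP-4 1646. For its most abundant miRNA, miR-146a-5p, the genotypes overlapped, with 1149 RPM in WT-1, 1071 in WT-2, 1023 in APP-3 and 1209 in APP-4. The red cell list lay between 3223 and 4642 RPM, the oligodendrocyte list between 1909.8 and 2280 and the neuronal list between 74983 and 83191, and only the oligodendrocyte list of these 3 was higher in both APP mice, again not with TMM (2189 in WT-2 and 2079 in APP-4). With TMM, the neuronal list was lower in both APP mice, at 74857 and 75862 RPM against 84026 in WT-1 and 83017 in WT-2, and the red cell list likewise. Of 7 choroid plexus and epithelial miRNAs, 6 passed the filter, with a summed level between 3550.4 and 4452 RPM. With TMM this sum too was lower in both APP mice, at 3544 RPM in APP-3 and 3679 in APP-4 against 3869 in WT-1 and 4499 in WT-2. The median log2 ratio of APP to WT of this list was 2.67, which went with APP-4, since miR-429-3p and miR-200b-3p were lower in APP-3 than in both WT mice, at 23.5 and 15.1 RPM, and reached 449.6 and 210.4 RPM in APP-4. The most abundant miRNA of the list, miR-204-5p, went the other way in APP-4. It had 3484 RPM in WT-1, 4370 in WT-2, 3472 in APP-3 and 2900 in APP-4. In single miRNAs, both APP libraries lay below both WT libraries for 3 of the 10 vascular miRNAs and above for 4, beside 8.99% and 27% of the 623 miRNAs. With TMM these counts turned to 4 below and 3 above, beside 19.1% and 14.9%. The APP libraries lay above for 4 of the 6 microglial and leukocyte miRNAs, or for 2 of them with TMM, beside the same shares.

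On the X chromosome the table holds 51 other hairpins. The nearest to Mir221 and Mir222 were Mir5617, 1.72 Mb away with at most 18 reads an arm, and Mir1198, 11.34 Mb away. miR-1198-5p had 136 RPM in WT-1, 127 in WT-2, 141 in APP-3 and 151 in APP-4, higher in both APP mice on this scale but not with TMM, where WT-1 had 148 and APP-4 137.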

How the data were processed

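Cortical small RNA of 4 mice was sequenced. According to the study's methods, the authors trimmed adapters, kept reads of 18 to 35 nt, matched them to miRBase with Bowtie and CLC Genomics Workbench and counted each mature miRNA. Those methods give up to 2 mismatches for the annotation step and none for miRBase, and the counts here do not show which applied. The submitters' processing notes name CASAVA 1.8 and mm9, while the study's methods name GRCm38, the build used here for positions. The values deposited by the authors are raw counts for 942 miRNAs. A deposited RPM column per library (there called TPM, scaled to clean reads) served only to recover the clean reads. The column sums of the counts gave the library sizes, and 3 reads correspond to between 0.115 and 0.157 RPM.

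Libraries were compared by Fisher's exact test (scipy 1.17.1) with Benjamini-Hochberg FDR over all miRNAs with a read, called at FDR under 0.05 and at least 1.5-fold, with 0.5 read added for log2 fold changes. Genotypes were compared by the quasi-likelihood test of edgeR 4.0.16 after filterByExpr and TMM (R 4.3.3), with DESeq2 1.42.0 as an alternative. The SE of a log2 fold change in edgeR is its size over the square root of F. Both tests were tried on simulated counts with known changes. For Fisher's test these held counting noise only. For edgeR the simulated mice varied less than these mice, whose common biological coefficient of variation was 24%. The simulations therefore do not show how often either test makes false calls between these mice. Hairpins were folded with RNAfold 2.7.2, and sequences are from RefSeq on GRCm38.p6, which matched 3 of the 4 arms. The deviations of siblings from the genotype means had a Pearson r of 0.23 over 252 miRNAs, and the pairing comes from the study's methods. The edgeR p-values set a genotype difference against the variation between 2 mice a genotype, estimated with information shared over miRNAs. Those of Fisher's exact test cover counting error between 2 libraries and not the variation between mice.

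The arms, lists and tests were chosen with earlier results of these data known. Named were the 4 arms, miRNAs sharing a seed with them, the 5 nearest profiles to miR-221-5p and to miR-222-3p, and up to 3 of the most abundant members of each list. The result of 1 further list is not reported here. The nearest hairpins on the X chromosome were also named. The hairpins with the lowest and highest differences in arm ratio were named after their values were seen.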

Additional observations from a re-analysis of the deposited data

Results flagged for a closer look

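miR-222-3p moved in opposite directions in the sibling pairs, with a log2 fold change of 0.40 in APP-4 over WT-1 and -0.27 in APP-3 over WT-2. Whether the pairs differ was not tested, as a pair holds a single mouse per genotype. With TMM library sizes the values were 0.14 and -0.28. The wild-type mice of the different pairs themselves differed by 0.42, with WT-2 higher than WT-1.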

How the results depend on the processing

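Of the alternatives tried for the counts of arms called, 1 changed a count: with TMM library sizes 1 arm, miR-221-5p, was called between APP-4 and WT-1 in place of 0, on the contrast by which the arms were chosen. In edgeR and DESeq2 0 arms were called under each alternative, including the sibling pair as a replicate block, with which 2 of 623 miRNAs were called in place of 0, and the lone mouse of a genotype was assumed to vary like the others when one was left out (3 miRNAs called without WT-1, 0 without WT-2, 21 without APP-3, 5 without APP-4). Without WT-1, WT-2, APP-3 or APP-4 in turn, the log2 fold change of miR-221-5p lay between -1.06 and -0.74, that of miR-221-3p between -0.11 and 0.21, that of miR-222-5p between 0.01 and 0.33 and that of miR-222-3p between -0.23 and 0.12. The difference of the 5p share of Mir221 lay between -3.52 and -2.14 percentage points, an alternative chosen after seeing the data. With a minimum of 10 RPM, 3 of the 5 nearest profiles remained for miR-221-5p and 3 of 5 for miR-222-3p. The Fisher test called 50, 23, 38 and 38 miRNAs at 2-fold in place of 104, 61, 89 and 73 (APP-4 over WT-1, APP-3 over WT-2, WT-2 over WT-1, APP-4 over APP-3). With a mean of at least 10 RPM it called 49, 31, 39 and 37 in the same order. Only 379 miRNAs were then tested, in place of 899, 896, 879 and 907, so these counts are not lower shares by themselves. With TMM, 39 were higher and 46 lower in APP-4 than in WT-1, in place of 87 and 17. With 2 mice a genotype and 383 to 545 reads of miR-222-5p, differences of the size of its SE could not be resolved.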
